A study of Mus musculus with 6 samples.

Results

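The genes described here encode the proteins of the cytosolic ribosome, the particle that translates messenger RNA outside mitochondria. They were chosen by symbol alone: every gene named Rpl or Rps with a number, the stalk genes Rplp and the gene Rpsa, without the ribosomal S6 kinases, Rps19bp1 and pseudogenes, as long as a probe set of the array names that gene and no other. The rule gave 49 genes with 105 probe sets, of 18193 genes and 45101 probe sets in all. RNA had been taken from the femurs of 3 male C57BL/6 mice, 8 weeks old, which had all received saline by intraperitoneal injection and carried no transgene or deletion named in the labels. Endosteal RNA (3 arrays, A to C) is what Trizol lysed from the inner surface of the emptied femoral shaft. Central RNA (3 arrays, A to C) came from the marrow flushed out of the shaft with buffered saline, pelleted and then lysed. Region therefore also goes with the time between flushing and lysis, and the part of either cannot be told apart in this design.

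A ribosome joins a small subunit, which reads the message, to a large subunit, which forms the peptide bond and passes the growing chain through its exit tunnel. Nearly every protein is present in 1 copy per ribosome. Cells make the proteins in matched amounts, in part by control of translation through a pyrimidine stretch at the start of their messages that answers to mTOR. In blood formation the family is known from Diamond-Blackfan anaemia, in which loss of 1 copy of a ribosomal protein gene impairs red cell production, and some tissues express a paralog in place of the usual protein, as striated muscle does with Rpl3l in place of Rpl3.

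Values are the deposited probe set signals, a linear intensity on which 1 array can be set against another but a gene cannot be set against a different gene. Each gene was represented by its brightest probe set. The differences below are endosteal minus central on the scale log2(signal + 16), which understates the change of dim genes, each with its standard error (SE) and with an adjusted p from limma over all 18193 genes. A gene is called higher or lower where that adjusted p is below 0.05. The test took the 6 arrays as independent, although arrays from 3 mice cannot come from 6 separate animals. Values of a region are listed in the order of its arrays A, B and C. Every array had been scaled to the same trimmed mean, 500, while the median signal was 120 to 131 on endosteal arrays, against 97.2 to 106 on central arrays. The regions also differed in makeup: all 16 skeletal muscle markers, 6 of 7 bone markers and 7 of 10 endothelial markers were called higher in endosteal RNA, with summed muscle signals of 87163 to 170680 against 1503 to 2052, and summed endothelial signals of 5588 to 5901 against 1775 to 2473. Of 11 B lymphocyte markers, 4 were called lower. In such bulk RNA, fewer cells of a type and less RNA per cell cannot be told apart.

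On the deposited scale, nearly all ribosomal protein genes had a higher signal in endosteal than in central RNA, by a small and even step. Of the 49 genes, 13 (26.5%) were called higher, where 7.74% of all genes were, and 0 were called lower, where 3.97% of all genes were. On 41 of the 49 genes (83.7%) all endosteal arrays lay above all central arrays, which was so for 22.1% of all genes. On 0 of the 49 did all endosteal arrays lie below, against 15.4% of all genes, and the arrays overlapped on the other 8. The median difference was 0.41 over the 49 genes and 0.10 over all genes, and 46 of the 49 differences were above 0, against 10430 of 18193. At an unadjusted p under 0.05 limma had 35 of the 49 genes higher and 0 lower. Summed over the 49 genes, the signal made up 6.74%, 6.96% and 6.97% of the summed signal of all genes on endosteal arrays, against 5.29%, 5.26% and 5.37% on the central arrays.

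**Figure D1:**
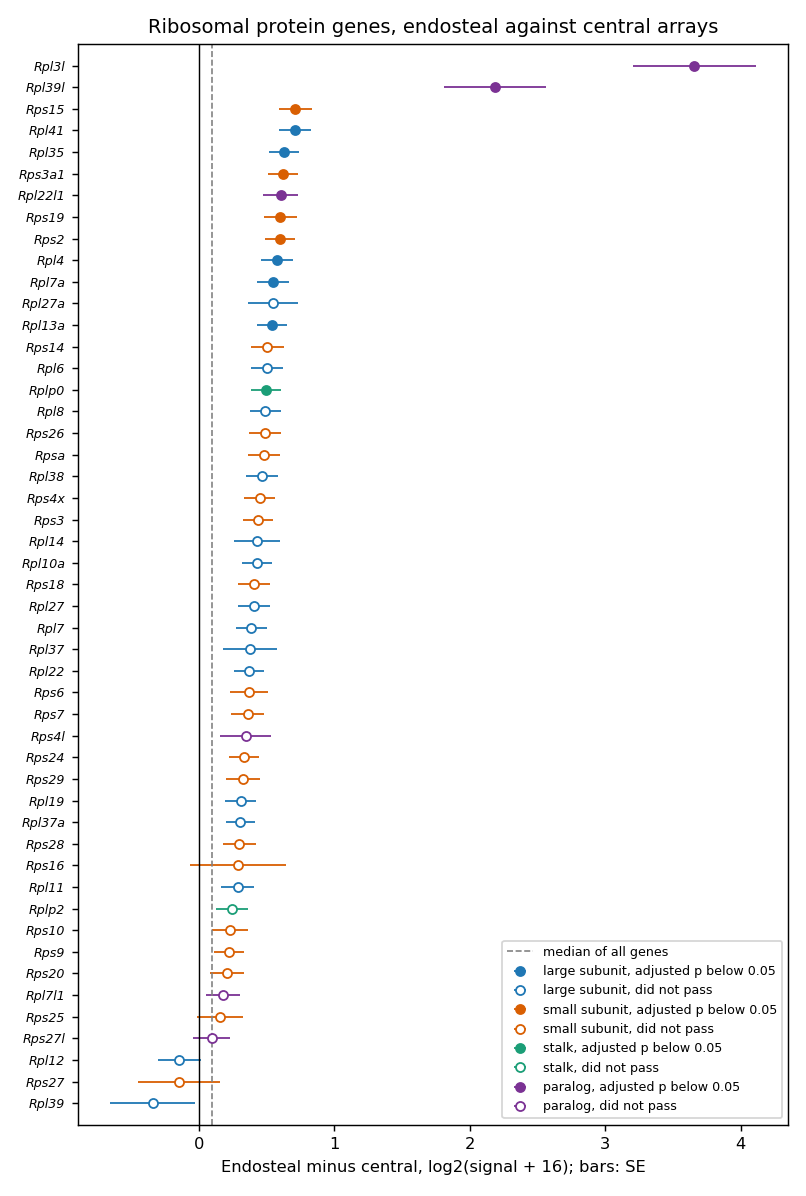
Endosteal minus central difference on the log2(signal + 16) scale for each of the 49 ribosomal protein genes, largest at the top, with bars of 1 standard error, colours for the part of the ribosome and filled points for an adjusted p below 0.05. Most genes lie in a narrow band to the right of the all-gene median of 0.10 (dashed line), Rpl3l and Rpl39l stand far to the right, and 3 genes lie below 0.

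The calls depended on all 6 arrays: without any 1 array, 1 or 2 of the 49 genes were called higher while their median stayed between 0.39 and 0.44. With the array letter as a replicate block, 0 of 49 were called by limma (0.467% of all genes were called higher), with 27 at an unadjusted p under 0.05.

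The genes with a strong signal kept closest together. A mean signal above 5000 was reached by 36 of the 49 genes, all 36 with a positive difference. Of these, 35 had endosteal arrays wholly above central ones, against 39.1% of all genes of that brightness, and 11 (30.6%) were called higher, against 11% of them. Their median difference was 0.44, while the 749 other genes above 5000 had a median of 0.03, with 75 called higher and 67 lower. Above a signal of 20000 stood 33 ribosomal protein genes, whose differences ran from 0.21 to 0.71 and whose arrays did not overlap for any of the 33. Of these 33 genes, 10 (30.3%) were called higher. The 67 other genes above 20000 had a median of 0.18, with 49 differences above 0. Endosteal arrays lay wholly above for 33 of the 67 and wholly below for 12, with 13 (19.4%) called higher and 3 lower. The spread between replicate arrays was small for the bright ribosomal genes, with a median SD of 0.07 on the log2 scale, against 0.11 for the other genes above 5000 and 0.29 for all genes. Among the 13 dimmer ribosomal protein genes, 2 were called higher, 10 differences were positive and 7 genes had overlapping arrays.

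**Figure D2:**
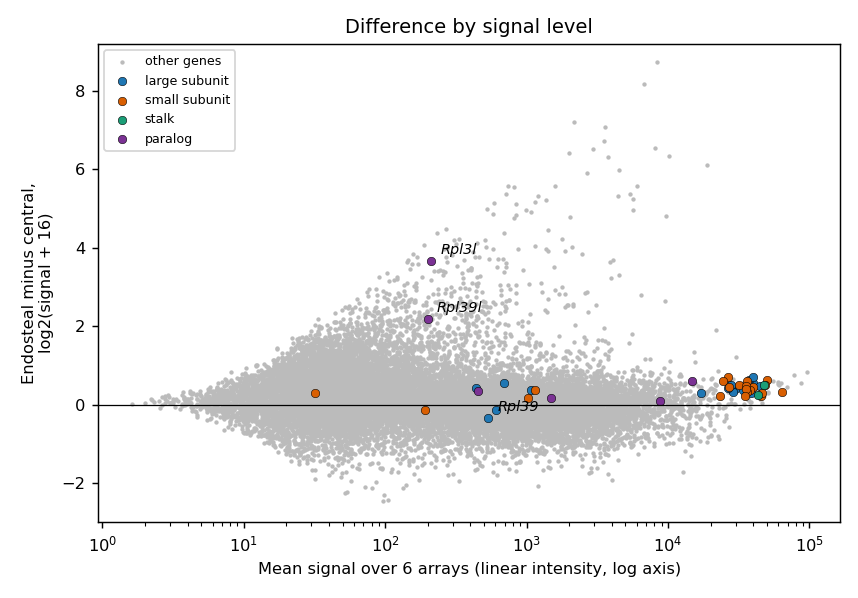
Endosteal minus central difference against the mean signal over the 6 arrays (log axis), with ribosomal protein genes in colour and all other genes in grey. The coloured points above a signal of 20000 all lie above 0, between 0.21 and 0.71. Other genes of that brightness spread to both sides, with 49 of 67 above 0.

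Of the 20 large subunit genes, 5 were called higher (7.74% of all genes were) and 17 had endosteal arrays wholly above the central ones (22.1% had). Their median difference was 0.43. Rpl41, which encodes the shortest protein of the ribosome, had a signal of 49071, 46365 and 52747 on endosteal arrays, against 31511, 28844 and 30195.5 on central arrays. Every endosteal value was well above the highest central one, and the difference was 0.71 (SE 0.12, adjusted p = 0.0238 by limma). Another bright Rpl41 probe set differed by 0.69, but both of its dim ones had endosteal arrays wholly below central ones (-0.22 and -0.39), and the mean of its probe sets was not called (0.20, adjusted p = 0.361 by limma). Rpl35, which sits by the mouth of the exit tunnel, had 44092, 46197 and 46169 on endosteal arrays, against 29147, 29391 and 29795 on central arrays. Its replicates were nearly level within each region, and the difference was 0.63 (SE 0.11, adjusted p = 0.0255 by limma). Its other bright probe sets differed by 0.41 to 0.60, a dim one that overlapped by -0.97, and their mean was not called (0.28, adjusted p = 0.298 by limma). The other called genes of the large subunit were Rpl4 (0.58, adjusted p = 0.0384), Rpl7a (0.55, adjusted p = 0.0408) and Rpl13a (0.54, adjusted p = 0.0352), all by limma. Rpl13a had another probe set at 0.55, while the remaining ones, also above a signal of 5000, overlapped (0.13 and -0.0065), and the mean of its probe sets was not called (0.30, adjusted p = 0.218 by limma). Rpl6 (0.50, adjusted p = 0.0516) and Rpl8 (0.49, adjusted p = 0.0511) missed the threshold in the same limma test although their arrays did not overlap. Rpl11, which in mammals binds the p53 regulator Mdm2 when ribosome assembly is disturbed, had 20111, 17424 and 18551.5 on endosteal arrays, against 15562, 14977 and 15405 on central arrays. All 3 endosteal values were above the central ones, but the difference of 0.29 (SE 0.12) did not pass (adjusted p = 0.187 by limma).

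Of the 21 small subunit genes, 4 were called higher (7.74% of all genes were) and 18 had endosteal arrays wholly above the central ones (22.1% had). Their median difference was 0.37. Rps15, a protein of the small subunit's head, had a signal of 33040.1, 31848.5 and 33476 on endosteal arrays, against 18928, 21886 and 19339 on central arrays. The lowest endosteal value stood well clear of the highest central one, and the difference was 0.71 (SE 0.12, adjusted p = 0.0241 by limma). Rps3a1 had 58434, 61665 and 61215 on endosteal arrays, against 39191, 39688 and 39206 on central arrays. The central replicates were almost equal, and the difference was 0.62 (SE 0.11, adjusted p = 0.0263 by limma). Rps2, which lies near the entry of the message channel, was called higher by 0.60 (adjusted p = 0.0290 by limma). Rps6, the target of the S6 kinases below mTOR, had 1156, 1249 and 1475 on endosteal arrays, against 978, 974 and 1024 on central arrays. The groups did not overlap, and the difference of 0.37 (SE 0.14) did not pass (adjusted p = 0.148 by limma). A brighter probe set, shared with the pseudogene Rps6-ps4, had 58959, 61986 and 61487 on endosteal arrays, against 39750.3, 40937.5 and 38708 on central arrays, without overlap (0.61, SE 0.14, adjusted p = 0.0675 by limma over all probe sets other than controls). Rpsa, also known as the precursor of a laminin receptor, differed by 0.48 (adjusted p = 0.0542 by limma) and did not pass. Rps14, the gene tied to the anaemia of the human 5q- syndrome, differed by 0.50 on its brightest probe set and did not pass (adjusted p = 0.0545 by limma). The other Rps14 probe set, also bright, was called higher (0.64, adjusted p = 0.0438 by limma over single-gene probe sets).

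Of the 10 genes listed for Diamond-Blackfan anaemia, 6 had a probe set of their own. On the brightest probe set of all 6 the endosteal arrays lay wholly above the central ones, while only Rps19 passed. The same lack of overlap was seen for 22.1% of all genes and 35 of the 36 ribosomal protein genes above a signal of 5000. Of all genes, 7.74% were called higher. Rps19, the gene most often mutated in that disease, had a signal of 30209, 28573 and 29711 on endosteal arrays, against 17911, 20251 and 20239 on central arrays. The gap between the regions was wider than the spread within either, and the difference was 0.60 (SE 0.12, adjusted p = 0.0347 by limma). The others were Rps26 (0.49), Rps7 (0.36), Rps24 (0.33), Rpl11 (0.29) and Rps10 (0.23), with adjusted p = 0.0563, 0.116, 0.118, 0.187 and 0.326 in that order by limma. The probe sets of Rps7, Rps24 and Rps10 disagreed among themselves. The other single-gene probe set of Rps7, also bright, overlapped (0.16). Of 6 for Rps24, a bright one overlapped (0.03), a dim one had endosteal arrays wholly below central ones (-0.34), and their mean was 0.17. The brightest of Rps10 had 44434, 54012 and 47671 on endosteal arrays, against 43104.5, 38669 and 42636 on central arrays, so the groups nearly touched. Another Rps10 probe set ran the other way, with 4748, 4564 and 3692 on endosteal arrays, against 19155, 8035 and 7849 on central arrays (difference -1.30, adjusted p = 0.105 by limma over single-gene probe sets). Erythroid markers, the cells that the disease affects, had 0 of 8 genes called in either direction by limma, with 3 at an unadjusted p under 0.05 and a median of -0.38; their summed signal was 63089 to 90191 on endosteal arrays, against 92945 to 107887 on central arrays, and its part in these values was not tested.

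The stalk of the large subunit recruits the elongation factors. Its base, Rplp0, had a signal of 54249.6, 57676 and 56257 on endosteal arrays, against 38917, 40904.5 and 39670.5 on central arrays. The regions were far apart beside their own spread, and the difference of 0.49 (SE 0.11) passed narrowly (adjusted p = 0.0459 by limma). Rplp2, which binds to Rplp0 in pairs with Rplp1, had 47979, 46972 and 45429 on endosteal arrays, against 41814, 38784 and 37947 on central arrays. The difference of 0.24 (SE 0.12) did not pass (adjusted p = 0.232 by limma), and it fell below 0 when arrays were centred on their medians (-0.02) or quantile normalised (-0.04). Rplp1 shares its only probe set with a predicted gene, Gm13777, and that probe set differed by 0.50 (SE 0.14, adjusted p = 0.103 by limma over all probe sets other than controls).

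**Figure D3:**
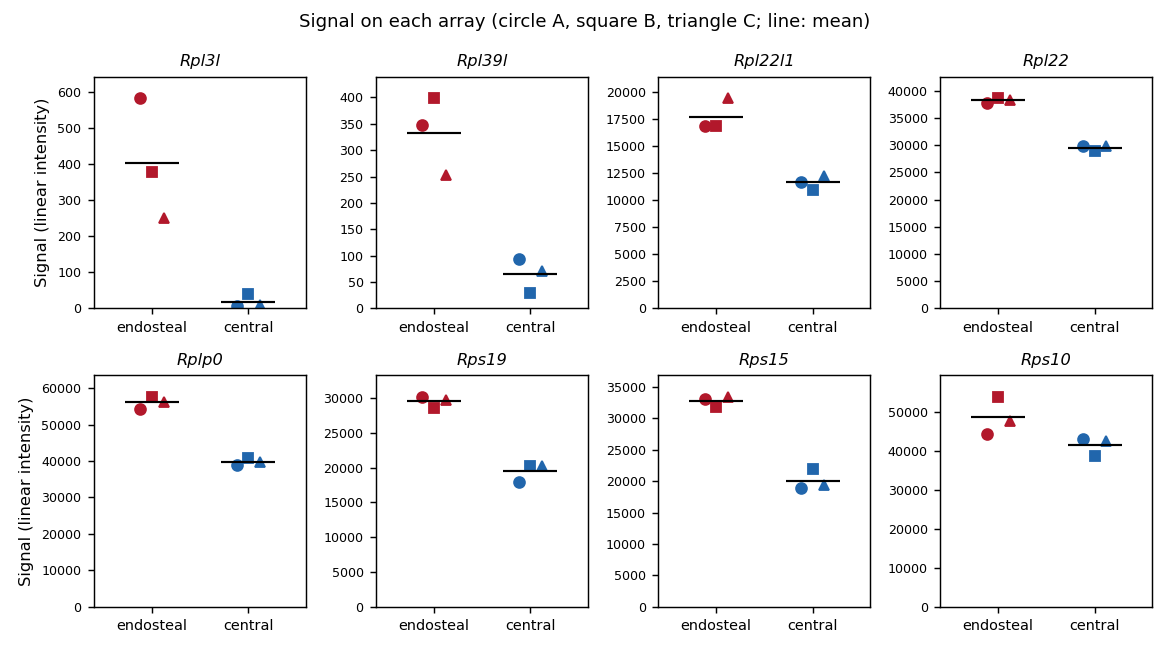
Signal of 8 ribosomal protein genes on each array (linear axes from 0; circle A, square B, triangle C; line at the mean of 3), endosteal left and central right in each panel. Rpl3l and Rpl39l are dim and differ by a wide margin, Rpl22l1, Rpl22, Rplp0, Rps19 and Rps15 show a smaller, even gap, and in Rps10 the groups nearly touch.

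Of the 6 paralogs, Rpl3l and Rpl39l held the largest differences of the family. Rpl22l1, Rps4l, Rpl7l1 and Rps27l differed by 0.09 to 0.60. Rpl3l, the muscle paralog of Rpl3, had a signal of 583, 379 and 251 on endosteal arrays, against 6.16, 39.3 and 9.63 on central arrays. The endosteal values were all far above the central ones, which lay near the bottom of the signal range. The difference was 3.66 (SE 0.46, adjusted p = 0.0113 by limma). Because the central signals are so low, its size depended on the pseudocount, at 4.72 with 1 and 2.47 with 64, and was called with each. Rpl3l was called with each of the 6 arrays left out, at differences of 3.36 to 4.06, but not with the letter as a replicate block (adjusted p = 0.0623 by limma). The summed signal of the skeletal muscle markers was 170680, 93685 and 87163 on endosteal arrays, against 2052, 1503 and 1694 on central arrays, with none of the 16 listed at 0. That sum was highest on the endosteal array where Rpl3l was highest and lowest where it was lowest, an order over 3 arrays only. Ckm, Myl1 and Myoz1 broke this order, with a lower signal on endosteal array B than on C, while the other listed markers kept it. The part of muscle RNA in the Rpl3l signal was not tested.

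Rpl3 itself has no probe set of its own on this array. Its bright probe set, annotated to Rpl3 and the predicted gene Gm12816, had a signal of 37333, 38842 and 39961 on endosteal arrays, against 27236, 28543 and 27437 on central arrays. The groups did not overlap, and the difference of 0.48 (SE 0.14) did not pass (adjusted p = 0.113 by limma over all probe sets other than controls). A dim one, annotated to Rpl3 and further predicted genes, had 591.5, 608 and 680.1 on endosteal arrays, against 429.7, 783 and 642 on central arrays, and overlapped (difference 0.06, SE 0.25). The bright Rpl3 probe set thus lay within the band of the bright ribosomal protein genes, 0.21 to 0.71, and Rpl3l far outside it.

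Rpl39l, the paralog of the exit tunnel protein Rpl39 that in mice is known from developing sperm, had a signal of 348.5, 398.5 and 252 on endosteal arrays, against 93.5, 28.7 and 71.6 on central arrays. All endosteal values were above all central ones, and the difference was 2.19 (SE 0.38, adjusted p = 0.0241 by limma). Its central signals were low too. The call was lost without endosteal array A, endosteal array B or central array C, where Rpl3l was the only ribosomal protein gene called. With the letter as a replicate block Rpl39l was not called either (adjusted p = 0.0888 by limma). Rpl39 on its only single-gene probe set had 439, 689 and 313 on endosteal arrays, against 683, 474 and 610.4 on central arrays, which overlapped (difference -0.34, SE 0.31, adjusted p = 0.529 by limma). That gene's brighter probe set, shared with the predicted gene Gm32211, had 60225, 68687 and 69995 on endosteal arrays, against 51176, 46368.5 and 41057.5 on central arrays, a difference of 0.52 (SE 0.16) without overlap. The bright and the dim probe set of Rpl39 thus pointed in opposite directions, neither of them past the threshold.

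Rpl22l1, whose message Rpl22 holds down in mouse cells, was called higher together with a smaller difference in Rpl22. Rpl22l1 had 16877, 16889.9 and 19435 on endosteal arrays, against 11718, 10976 and 12279.6 on central arrays (difference 0.60, SE 0.13, adjusted p = 0.0399 by limma). Rpl22 had 37776, 38628 and 38201 on endosteal arrays, against 29856, 28963.5 and 29771 on central arrays (difference 0.37, SE 0.11, adjusted p = 0.0853 by limma). On these probe sets both genes lay higher on every endosteal array than on any central one. The other probe sets of Rpl22 overlapped (0.36 and 0.19). Rps27l, a target of p53, had 8777, 9609.6 and 8817 on endosteal arrays, against 9578, 7946.5 and 8024 on central arrays. These overlapped, and the difference of 0.09 (SE 0.14) did not pass (adjusted p = 0.694 by limma). Its other probe sets overlapped too (0.15 and 0.19). Rps4l (0.34, SE 0.19) and Rpl7l1 (0.18, SE 0.13) did not pass either.

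Each paralog was also set against its partner within the arrays, as the difference between their log2 differences. With 3 arrays a region the smallest p of an exact two-sided permutation test is 0.1, so no pair could pass and these are given as values only. The paralog's difference was the larger by 2.53 (SE 0.28) for Rpl39l over Rpl39 and by 0.23 (SE 0.08) for Rpl22l1 over Rpl22. It was the smaller one for Rpl7l1 beside Rpl7 (-0.21, SE 0.11), on the brightest probe set of each. That order depended on the probe set. Other probe sets differed by 0.52 and 0.0041 for Rpl7l1, and by 0.48 and 0.03 for Rpl7. For Rps4l beside Rps4x (-0.11, SE 0.19) and Rps27l beside Rps27 (0.24, SE 0.42) the arrays overlapped. Single-gene Rpl39 and Rps27 stand for genes whose brighter probe sets name further genes, so those pairs compare dim signals.

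The 3 genes with a negative difference were all measured on dim probe sets whose arrays overlapped. Besides Rpl39 these were Rpl12, with 687, 511 and 526 on endosteal arrays, against 633, 602 and 662 on central arrays (-0.15, SE 0.16), and Rps27, with 182, 191 and 156 on endosteal arrays, against 122, 278 and 220.1 on central arrays (-0.15, SE 0.30). For both genes the brighter probe sets, which name predicted or related genes too, were positive. That of Rpl12 had 37089, 40153 and 40345 on endosteal arrays, against 22412, 23106.5 and 22218 on central arrays, and was called higher (0.79, SE 0.14, adjusted p = 0.0393 by limma over all probe sets other than controls). That of Rps27, shared with Rps27rt, differed by 0.26 (SE 0.14). Rps27 turned positive (0.09) without central array B, which held its highest central value.

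Many ribosomal protein genes have processed copies elsewhere in the genome, and the array's annotation shows it: 31 ribosomal protein symbols occur only on probe sets that name several genes, and these cannot be told from their copies here. Such probe sets numbered 110, with a median difference of 0.42; 102 were positive, 86 had endosteal arrays wholly above central ones (17.8% of all probe sets other than controls had) and 1 wholly below (13.6% had). Calls among them were 2 higher, where 3.21% of all probe sets other than controls were, namely the one of Rpl12 above and one annotated to Rpl23 and further loci (0.76, SE 0.15, adjusted p = 0.0480 by limma), and 0 lower, where 1.29% were. The 105 single-gene probe sets of the 49 genes had 9 called higher, where 4.63% of all single-gene probe sets were, and 0 lower, where 2.08% were. Their median was 0.36, 87 were positive, and 66 had endosteal arrays wholly above central ones (19.4% of all single-gene probe sets had) and 5 wholly below (14.3% had). Of 24 genes with several probe sets, 11 had all of them on one side of 0 and 13 did not. Where a gene had at least 2 probe sets above a signal of 5000, all were positive in 16 of 18 genes, the exceptions being Rpl13a and Rps10. Probe sets without a suffix letter, which by the manufacturer's naming match 1 transcript, numbered 34. Of these, 6 lay above 5000, those of Rpl19, Rpl22, Rpl27, Rplp0, Rps15 and Rpsa. All 6 were positive with a median of 0.44, and 5 had endosteal arrays wholly above central ones, while that of Rpl22 overlapped. The dimmer ones lay on both sides of 0, from -0.97 (Rpl35) to 3.66 (Rpl3l).

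The size of the step depended on how the arrays were brought to a common scale. With each array centred on its median, the 49 genes had a median of 0.14 against -0.17 for all genes, with 39 positive and 2 called higher; with quantile normalisation the medians were 0.19 and -0.05, with 39 positive and 4 called higher. With arrays scaled to the poly-A control transcripts, which are added to the sample before labelling, they were 1.43 and 0.96, with 49 positive and 46 called higher. Relative to all genes the ribosomal protein genes were thus higher by 0.31 as reported, 0.31 with centring, 0.24 with quantile normalisation and 0.47 with poly-A scaling. The share of higher among all genes called moved too, at 66.1% as reported, 32.3% with centring, 54.6% with quantile normalisation and 99.6% with poly-A scaling. No ribosomal protein gene was called lower by limma under any of these scalings, with 1 gene lower at an unadjusted p under 0.05 after centring. Control signals on the arrays moved with region as well. The mean signal of the 18S ribosomal RNA control probe sets was 485, 485 and 442 on endosteal arrays, against 230, 299.7 and 319.8 on central arrays. The ratio of 3′ to 5′ actin signal was 1.33, 1.40 and 1.32 on endosteal arrays, against 1.15, 1.23 and 1.19 on central arrays, while that of Gapdh was 0.881, 0.837 and 0.767 against 0.888, 0.820 and 0.846. The part of these in the ribosomal protein signals was not tested.

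**Figure D4:**
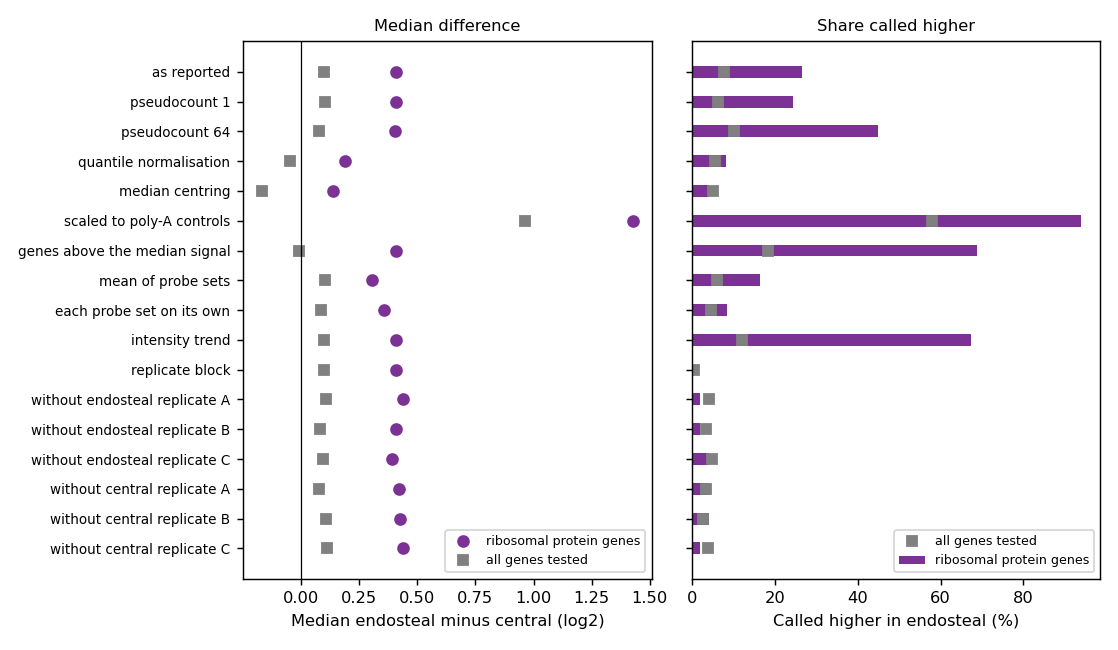
Left, the median endosteal minus central difference of the ribosomal protein genes (circles) and of all genes tested (squares) as reported and under each other way of processing. Right, the percentage called higher (bars for ribosomal protein genes, squares for all genes); the circles stay to the right of the squares throughout, whereas the percentage called runs from 0 with the replicate block to nearly all with poly-A scaling.

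The other lists of translation genes had few calls, to be read beside the 7.74% called higher and 3.97% called lower of all genes. Of 8 elongation factor genes, 2 were called higher and 0 lower, with a median of 0.15. Eef1a1, which brings aminoacyl-tRNA to the ribosome, had a signal of 61746, 68286 and 67862 on endosteal arrays, against 43973, 43376 and 43568 on central arrays (difference 0.59, SE 0.12, adjusted p = 0.0320 by limma). Its muscle and nerve form Eef1a2 had 1656, 1242 and 993 on endosteal arrays, against 234, 129 and 218 on central arrays (difference 2.65, SE 0.29, adjusted p = 0.00862 by limma), with the highest endosteal value on array A and the lowest on array C, as for Rpl3l and the summed muscle markers. Fau, a small subunit protein that the symbol rule leaves out, differed by 0.38 (SE 0.12, adjusted p = 0.102 by limma) without overlap. Of 23 initiation factor genes, 2 were called higher (Eif3m 0.67 and Eif4e 0.61) and 1 lower (Eif5 -0.57), with a median of 0.20. Of 39 genes for ribosome assembly and RNA polymerase I, 1 was called higher, the nucleolar chaperone Npm1 (0.56), with a median of 0.33. Of 11 genes of translation control by mTOR and Myc, 0 were called higher and 1 lower, the translation repressor Eif4ebp2 (-1.10, SE 0.12, adjusted p = 0.00836 by limma), with a median of -0.10.

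**Figure D5:**
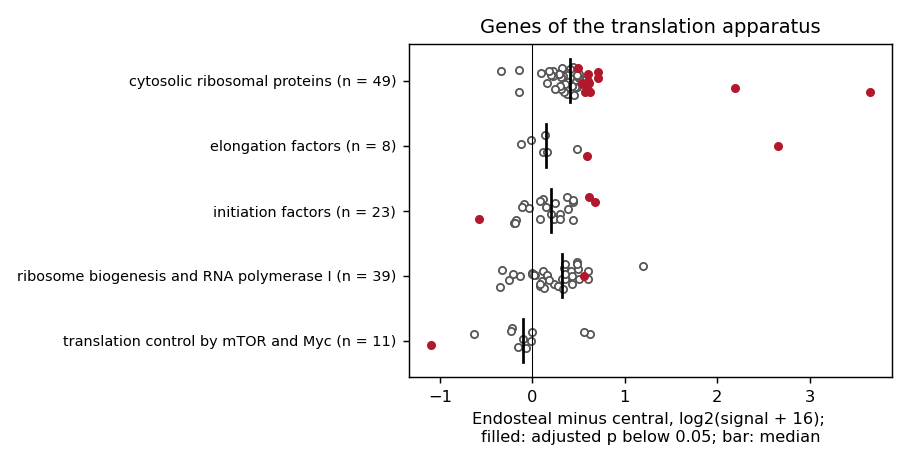
Endosteal minus central difference of each gene, on the log2(signal + 16) scale, for the cytosolic ribosomal proteins and 4 lists of related genes, with filled points for an adjusted p below 0.05 and a bar at the median. The medians run from 0.41 for the ribosomal proteins to -0.10 for genes of translation control by mTOR and Myc.

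Mitochondrial ribosomal proteins, which are encoded by a separate gene family and build the ribosome inside mitochondria, had nearly the same median. Of 76 such genes, 14 were called higher and 0 lower (7.74% and 3.97% of all genes were), 52 had endosteal arrays wholly above central ones (22.1% of all genes had), and the median was 0.42. Of 11 genes of dividing cells, 1 was called higher (Pcna) and 0 lower, with a median of 0.02. Neutrophil markers, with 5 of 11 called higher and 1 lower and a median of 0.56, had summed signals of 615604 to 622735 on endosteal arrays, against 407058 to 451401 on central arrays. The 11 B lymphocyte markers, all with a negative difference and 4 of them called lower, had summed signals of 8798 to 16681 on endosteal arrays, against 21829 to 34178 on central arrays. How far the cell makeup of the RNA bears on the ribosomal protein signals was not tested.

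The start sites of the genes were read from RefSeq (GRCm38.p6), which held promoters of 43 of the 49 genes in 51 windows, each from 250 bases before to 50 bases after the start. Rpl7, Rpl8, Rps14, Rps20, Rps29 and Rps4l were not matched. The motif CCGGAAG, the core bound by ETS factors such as GABP, was present on either strand in 41.2% of these windows, against 8.86% of all 32851 windows. CTCTTTC, a pyrimidine run, was in 15.7% against 8.16%, AAGATGG, the core bound by YY1, in 15.7% against 6.34%, and TCTCGCG, one side of a palindrome known from promoters of widely expressed genes, in 21.6% against 2.56%. No member window had matches of different motifs that shared a base. Of the 13 genes called higher, 5 held CCGGAAG in a window (Rpl35, Rpl39l, Rpl41, Rps2 and Rps3a1), and so did 21 of the 43 genes matched. Both windows of Rpl3l held none of the 4 motifs.

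Shown here are 50 bases around the start, 30 before and 20 after, for both paralogs with the widest difference and for 3 called genes of the ordinary set that hold a motif there, 5′ to 3′ on the strand of the gene, with any of the 4 motifs in capitals on either strand. Rpl3l (chr17:24727796-24727845, plus strand, the first of its windows), Rpl39l (chr16:10170198-10170247, plus strand), Rps19 (chr7:24884562-24884611, plus strand, the first of its windows), Rps3a1 (chr3:86142649-86142698, minus strand) and Rpl35 (chr2:39005112-39005161, minus strand) read as follows.
Rpl3l: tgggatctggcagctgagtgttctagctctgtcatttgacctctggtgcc
Rpl39l: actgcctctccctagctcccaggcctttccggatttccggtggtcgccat
Rps19: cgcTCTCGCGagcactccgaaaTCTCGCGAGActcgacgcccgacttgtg
Rps3a1: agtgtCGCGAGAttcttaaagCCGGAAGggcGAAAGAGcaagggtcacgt
Rpl35: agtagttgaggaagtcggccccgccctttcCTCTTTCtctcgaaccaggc
Rps3a1 holds CCGGAAG just before the start and, on the other strand, TCTCGCG farther before it and CTCTTTC just after it. Rpl35 holds CTCTTTC from the start itself, and in Rps19 TCTCGCG and its other-strand form overlap into the whole palindrome. A match describes the letters of this stretch and was not tied to any measurement of binding.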

How the data were processed

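RNA of 3 endosteal and 3 central samples was labelled with a one-cycle kit from 2 µg of total RNA and hybridised to Affymetrix arrays, per the labels' protocols. The authors deposited a linear intensity (signal) for each of 45101 probe sets. No label or file header names the summarising software, which is not given in the sources used here. Probe sets were named by the platform annotation: 34945 named 1 gene, 932 several, 9160 none here, and 64 were controls; 34741 of the 34945 matched RefSeq and 0 symbols changed. Each gene took the single-gene probe set with the highest mean log2(signal + 16). Differences on this log2 scale, computed from the deposited signals, were tested with limma 3.58.1 in R 4.3.3 (lmFit, eBayes, region as the only term, two-sided, Benjamini-Hochberg over 18193 genes, threshold 0.05), after a check on simulated data. In that check, known steps were added to 200 of the 18193 genes, drawn from all signal levels. Steps of 0.5, 1, 2 and 4 on the log2 scale were called for 0%, 6%, 62% and 86% of these genes. A gene that did not pass is thus not shown to be level. The data held more calls (1409 higher and 723 lower), so the adjusted threshold was stricter in the check. Its percentages do not carry over to bright genes of the data, where Rplp0 was called at 0.49. The number of arrays limits the precision.

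Named genes were the paralog pairs, the stalk genes, Rpsa, Rps6, Rps14, the Diamond-Blackfan genes, the 10 largest differences each way, and up to 4 called genes of each related list in each direction. Rpl7a, Rpl13a, Rpl6, Rpl8, Rpl19, Rpl27 and Rpl23 were named after their values were seen. The genes and lists were chosen with earlier results of these data known. A Rpl3 difference on a single-gene probe set, as planned, could not be had, so a fit over all probe sets other than controls was added after seeing the data. Alternatives were other pseudocounts (1, 64), scalings, filters, probe set rules, a variance trend, the array letter as a block, and leaving out each array. Some genes are not reported here.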

Additional observations from a re-analysis of the deposited data

How the results depend on the processing

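Of the 49 ribosomal protein genes, the number called higher (13 as reported) was 22 with a pseudocount of 64, 4 with quantile normalisation, 2 with median centring, 46 with poly-A scaling, 31 of 45 among genes above the median signal, 8 with the mean of a gene's probe sets and 33 with an intensity trend, and 1 to 2 when 1 array was left out. Their median (0.41) was 0.19, 0.14, 1.43 and 0.30 with quantile normalisation, centring, poly-A scaling and the mean of probe sets, and 0.36 over single probe sets. Among all genes, 10529 were called higher with poly-A scaling and 2184 with the trend, against 1409, and 502 to 890 with 1 array left out. Those called lower (723) were 1106 with a pseudocount of 64, 1975 with centring, 47 with poly-A scaling, 1716 above the median signal, 1690 with the trend and 89 to 297 with 1 array left out. With the letter as a replicate block, 0 ribosomal protein genes, and 85 higher and 0 lower genes in all, were called, and Rpl3l kept its difference of 3.66 at an adjusted p of 0.0623. The correlation between same-letter arrays of their deviations from the region means was 0.045 (A), 0.039 (B) and 0.014 (C) across genes. Across genes above the median signal it was 0.252, 0.119 and 0.085. These values cannot settle whether a letter marks a mouse, and the labels do not say. The main test took the arrays as unpaired and independent, although 6 arrays from 3 mice cannot come from 6 separate animals.

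Rpl3l was called under the other alternatives run, at 2.47 to 4.72; it lies below the median signal, so that filter gave it no value, and Rpl3 was fitted by the added fit only. Values on the other side of 0 were Rpl39 0.65, Rps27 0.79 and Rpl12 0.85 with poly-A scaling, Rps27 0.0887 without central B (-0.46 to 0.0887 with 1 array left out), Rps4x -0.0072 and Rps10 -0.10 with the mean of probe sets, Rplp2 -0.0395, Rps10 -0.0845 and Rps20 -0.10 with quantile normalisation, and Rplp2 -0.024, Rps10 -0.0398, Rps9 -0.0471, Rps20 -0.0617, Rpl7l1 -0.093, Rps25 -0.11 and Rps27l -0.17 with centring. The causes were not tested. Of 368 values of the other 37 named genes under alternatives that keep 6 arrays, 251 kept direction and side of the threshold, 46 lost the call, 56 gained it and 15 changed sign. Probe sets with a signal near 16 or below carry little information on level.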
